A study of Sus scrofa with 8 samples.

Results

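Cytotoxic lymphocytes, the CD8 T cells and natural killer (NK) cells, kill a target cell in 2 ways. They release granules that hold perforin, which opens the target membrane, and granzymes, the proteases that enter through it, or they show Fas ligand to the death receptor Fas. Lectin-like receptors on their surface tune both. The 7 genes described here belong to this program: the granzymes *GZMA* and *GZMH*, granulysin (*GNLY*, a granule protein that damages membranes), perforin (*PRF1*), the receptors *KLRB1* (CD161) and *KLRK1* (NKG2D), and Fas ligand (*FASLG*). They are 7 of the 35683 genes in the count tables and were chosen by name, with earlier results of these data known. Their raw transcript counts (UMIs, 1 per captured RNA molecule) were read in single nuclei of pig retinas at week 4 after an intravitreal AAV injection.

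The study sequenced nuclei of 8 retinas from 6 female Yucatan minipigs aged 3 to 5 months. The AAV groups had received AAV2.7m8/CAG-GFP in both eyes at 5e11 vg per eye, a vector of the AAV2.7m8 capsid in which the ubiquitous CAG promoter drives GFP, and the vehicle groups had received vehicle. The week 4 groups are 1 left retina each from animals 7248 and 7249 after AAV and from animals 7250 and 7251 after vehicle. The week 2 groups are the left and right retinas of a single animal each, 7221 after AAV and 7222 after vehicle. All animals, controls included, had hyaluronidase (Vitrase) injected into both eyes beforehand and methylprednisolone before dosing and weekly after it, so no group shows the retina without a steroid. Each group is also a batch of its own in the labels, so treatment at a given week and batch cannot be told apart. The 2 eyes of a week 2 animal are not separate animals, and the week 2 and vehicle retinas serve as background.

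Between 121544835 and 173614051 UMIs were counted in a retina, and 350537 of 388491 barcodes were kept after a filter on mitochondrial share. Of 368982 distinct barcodes, 17084 occurred in more than 1 retina, and 1 T-like barcode occurred in both AAV week 4 retinas. Nuclei were put in the class of which they held the most distinct marker transcripts, at least 2, and no effector gene was a marker. The AAV week 4 retinas held 1031 and 784 T-like nuclei, with a median of 5 of the 16 T markers in the files. The vehicle week 4 retinas held 3 and 7, the AAV week 2 retinas 8 and 22, and the vehicle week 2 retinas 10 and 7. T-like nuclei were thus 2.13% and 1.67% of the AAV week 4 nuclei and 0.00686% and 0.0170% of the vehicle week 4 nuclei. The groups did not overlap, and the exact two-sided permutation test gave p = 0.333, the smallest value that 2 against 2 animals allow. Of the T-like nuclei at AAV week 4, 5.56% held a UMI of *NCR1*, *KLRD1*, *KLRF1* or *CD244*, the 4 NK genes of the list that are in the files. Several T markers (*CD2*, *CD247*, *SKAP1*) are also used by NK cells, so the gate does not separate the 2 kinds of lymphocyte.

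The count tables list 2 genes under the name *GZMA*. Their UMIs were summed here, with ENSSSCG00000016903 giving 339 of 394 *GZMA* UMIs in animal 7248 and 275 of 307 in animal 7249. In the RefSeq annotation of Sscrofa11.1 the 2 genes lie side by side on chromosome 16, at chr16:34262495-34272084 and chr16:34282160-34290422, both on the plus strand. Their transcripts were identical at 69.6% of 763 aligned bases. None of the 1011 windows of 90 bases in the first transcript occurred in the second, so a read of that length could be told apart. No table used here pairs the identifiers with these 2 positions. The other effector genes are single: *GZMH* at chr7:74723800-74727396 (plus), *GNLY* at chr3:59067327-59072034 (minus), *PRF1* at chr14:73515306-73520256 (minus), *KLRB1* at chr5:62244787-62257691 (plus), *KLRK1* at chr5:61646691-61655386 (plus) and *FASLG* at chr9:115068314-115075147 (plus). The *GZMH* transcript was identical to that of the granzyme *GZMB* at 82.8% of 780 aligned bases, and none of its 903 windows of 90 bases occurred in the *GZMB* transcript.

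The 150 bases before the annotated starts of the 4 granule genes are printed because *GZMA*, *GZMH* and *GNLY* were called higher at AAV week 4 and *PRF1* was not. They are given 5′ to 3′ in the direction of each gene, from RefSeq Sscrofa11.1, at chr16:34262345-34262494, chr7:74723650-74723799, chr3:59072035-59072184 and chr14:73520257-73520406. Capitals mark TGTGGT on either strand, the core that RUNX factors bind, and in *PRF1* TCACACC, the core that T-box factors bind.
GZMA: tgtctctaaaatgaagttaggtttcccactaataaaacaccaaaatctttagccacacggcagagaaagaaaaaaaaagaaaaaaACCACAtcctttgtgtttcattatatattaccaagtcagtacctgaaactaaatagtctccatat
GZMH: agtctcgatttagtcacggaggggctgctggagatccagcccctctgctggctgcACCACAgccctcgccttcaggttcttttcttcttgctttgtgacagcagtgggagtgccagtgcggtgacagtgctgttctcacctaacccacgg
GNLY: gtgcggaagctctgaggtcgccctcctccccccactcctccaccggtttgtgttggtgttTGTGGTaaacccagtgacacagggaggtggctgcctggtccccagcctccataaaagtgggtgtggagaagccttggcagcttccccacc
PRF1: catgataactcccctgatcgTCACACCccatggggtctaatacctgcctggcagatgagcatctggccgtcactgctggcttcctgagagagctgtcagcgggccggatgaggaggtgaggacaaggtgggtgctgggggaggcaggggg
Within 250 bases before the start, TGTGGT occurred in 3 of the 7 genes (*GZMA*, *GZMH* and *GNLY*) and in 14.0% of 19572 promoters. The *GZMA* sequence is that of the first of the 2 genes, which may not be the one with most UMIs, and the second, whose annotation is partial, also holds TGTGGT, 90 bases before its start. TCACACC occurred in *PRF1* alone among the 7 and in 2.53% of promoters. TTCNNNGAA, the palindrome that STAT factors bind, occurred in *KLRB1* alone among the 7 and in 6.12% of promoters. Matches on both strands were counted, and a match describes letters only, not binding. *KLRB1*, *KLRK1* and *FASLG* were also called higher at AAV week 4 and held no TGTGGT there. No link between these sequences and the calls was tested.

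In whole retinas, 6 of the 7 effector genes were called higher at AAV week 4 than at vehicle week 4, where 6.71% of all genes were, and *PRF1* was not called. *GNLY* had 250 and 275 UMIs in the 2 AAV week 4 retinas and 0 in both vehicle week 4 retinas, at least 131-fold higher per UMI sequenced when set against a floor of 3 counts over the vehicle group. *GZMA* had 394 and 307 UMIs against 4 and 6. *GZMH* had 173 and 176 against 1 and 0. For these 3 granule genes every AAV week 4 retina was above every other retina of the series, where no count exceeded 10. How many of all genes separate the retinas this way was not counted.

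Among the receptors, *KLRK1* rose from 1 and 0 UMIs to 100 and 131, and *KLRB1* from 9 and 7 to 236 and 132. Fas ligand rose from 2 and 0 to 68 and 84. Every AAV week 4 retina was above every other retina for these 3 genes too, but how many of all genes separate this way was not counted. *KLRB1* had the highest background of the 6, with 14 to 22 UMIs in the week 2 retinas of both the AAV-injected and the vehicle-injected animal.

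*PRF1* differed from the other 6. It had 114 and 86 UMIs at AAV week 4 and 43 and 31 at vehicle week 4, and 35 to 39 in the 4 week 2 retinas. The groups did not overlap, which was not counted over all genes either. The log2 fold change of 1.02 ± 0.30 (SE, 2 against 2 animals) had an adjusted p of 0.0816 in edgeR's quasi-likelihood test with Benjamini-Hochberg adjustment over 26697 genes. With the same test the other 6 had log2 fold changes and adjusted p-values of 5.69 ± 0.35 and 0.000667 (*GZMA*), 7.76 ± 0.55 and 0.00103 (*GZMH*), 4.09 ± 0.43 and 0.00427 (*KLRB1*), 7.16 ± 0.63 and 0.00218 (*KLRK1*), 5.70 ± 0.67 and 0.00627 (*FASLG*) and, with no fold given because its control is at 0, 0.00109 (*GNLY*). Across all genes tested, 6.71% were called higher, and the median log2 fold change of the 7 was 5.70 against -0.01 over all genes, also with *GNLY* set at its bound. The SE is worked back from the test statistic and is narrower than counting error where the vehicle count was 1 or 2. There counting error alone leaves the ratio wide: 262 (95% interval 46.7 to 10374) for *GZMH*, 173 (30.8 to 6876) for *KLRK1* and 57.0 (15.5 to 475) for *FASLG*. All vehicle week 4 UMIs of these 3 genes are in animal 7250, and without it their fitted log2 fold changes become 10.31, 9.72 and 9.12 against a control at 0, which are no bounds. A sum over a retina cannot tell more cells from more RNA per cell. When T-like nuclei were left out of the sums, an alternative chosen after seeing the data, the same 6 genes were still called, at lower log2 fold changes: 4.82 (*GZMA*), 6.59 (*GZMH*), 2.96 (*KLRB1*), 5.92 (*KLRK1*) and 4.71 (*FASLG*). These sums still held 421 and 298 rod nuclei with 2 or more T markers (animals 7248 and 7249). The part of mixed barcodes and free RNA in these folds was not tested.

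**Figure D1:**
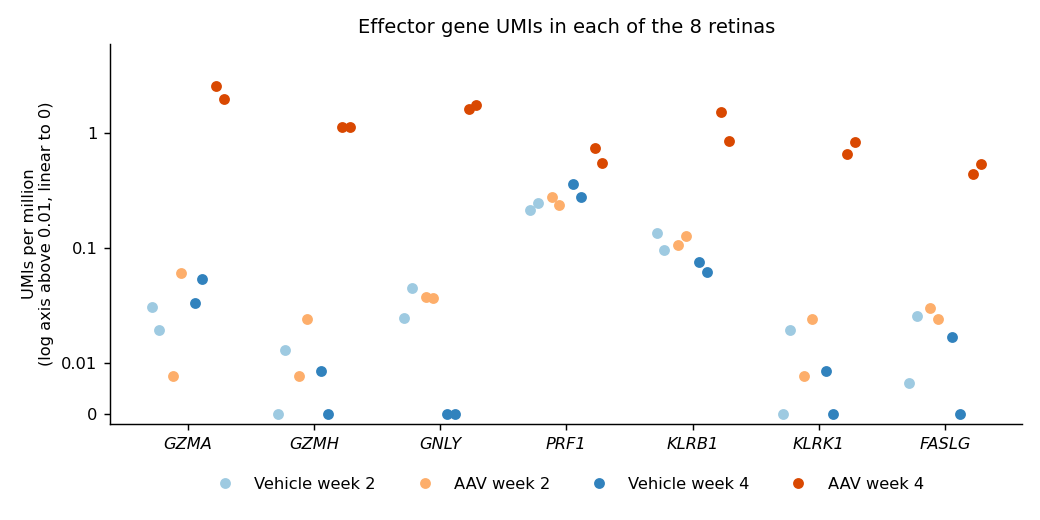
CPM (UMIs scaled to equal library totals) of each effector gene in each retina (log axis above 0.01, linear below it to 0), with 1 point per retina and 2 retinas per group. At AAV week 4 *GZMA* sits at 2.58 and 1.98 against 0.0336 and 0.0537 at vehicle week 4, while *PRF1* sits at 0.748 and 0.555 against 0.361 and 0.278.

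Part of the wider pathway list was also higher in whole retinas. Of 47 genes listed for the pathway 39 are in the tables, 37 passed the filter on low counts, 23 were called higher and 0 lower, at a median log2 fold change of 1.91 (over all genes, 6.71% were called higher and 4.44% lower). Without animal 7250 or 7251 the count fell to 14 and 15, and with T-like nuclei left out to 18. The makeup of the nuclei differed between the groups beyond T-like nuclei: myeloid-like nuclei were 3.14% and 2.11% at AAV week 4 and 0.368% and 0.377% at vehicle week 4, B-like nuclei 0.669% and 0.760% against 0%, and Müller nuclei 3.96% and 1.65% against 9.62% and 10.8%, and their part in these calls was not tested. Among the pathway genes called higher, *RUNX3*, a transcription factor of CD8 T cells, had 892 and 532 UMIs against 16 and 3 (log2 fold change 5.81 ± 0.59, adjusted p = 0.00373). *STX11*, a fusion protein of granule release, had 1361 and 1196 against 28 and 35 (4.92 ± 0.23, adjusted p = 0.000261). *FAS*, the receptor of Fas ligand, had 1178 and 729 against 55 and 56 (3.68 ± 0.30, adjusted p = 0.00156). The other genes among the 10 called with the greatest fitted change in this list were *TNF*, *IKZF3*, *GZMK*, *SLAMF7*, *CTSC* and *IFNG*, at log2 fold changes of 3.33 to 4.22, and the chemokine *XCL1*, with 22 and 17 UMIs against 0 in both vehicle retinas. *GZMB*, the best known granzyme, had 28 and 40 UMIs against 2 and 4, and the NK receptors *KLRD1* and *KLRF1* stayed at 19 UMIs or fewer in every retina.

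Within the AAV week 4 retinas, the effector genes were found most often in T-like nuclei. At least 1 of the 7 was found in 313 of 1031 T-like nuclei of animal 7248 (30.4%, with an exact binomial 95% range of 27.6 to 33.3) and in 241 of 784 of animal 7249 (30.7%, 27.5 to 34.1). In B-like nuclei the shares were 2.16% (7 of 324) and 2.53% (9 of 356), in myeloid-like nuclei 3.09% (47 of 1521) and 3.84% (38 of 990), and in nuclei of the retinal classes 1.16% (470 of 40493) and 1.04% (427 of 41034). These intervals cover counting error only. Median depth was 1250 and 1179.5 UMIs in T-like nuclei and 2420 and 2664 in retinal nuclei, so the T-like nuclei were the shallower. After every nucleus was thinned to 500 UMIs the shares were 15.7% and 18.4% in T-like, 0.617% and 0.562% in B-like, 0.526% and 0.404% in myeloid-like and 0.277% and 0.239% in retinal nuclei.

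*GZMA* and *GZMH* were found in more T-like nuclei than perforin was. *GZMA* was found in 10.1% and 8.55% of T-like nuclei (animals 7248 and 7249), with up to 10 and 15 UMIs in a nucleus. *GZMH* was found in 7.57% and 9.44%, and *GNLY* in 6.69% and 6.76%. *PRF1* was found in 2.62% and 2.17%, with 1.04 and 1.00 UMIs per positive nucleus. After thinning to 500 UMIs *PRF1* was found in 0.776% and 0.765% of T-like nuclei and in 0.394% and 0.202% of myeloid-like nuclei. These are shares of nuclei with a UMI, and they depend on how well each transcript is captured as well as on its level.

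Among the effector genes *KLRK1* differed most between the animals. *KLRB1* was found in 6.69% and 4.85% of T-like nuclei, *KLRK1* in 3.78% (interval 2.70 to 5.14) and 7.02% (5.33 to 9.03), and *FASLG* in 3.01% and 4.34%. The intervals of *KLRK1* do not overlap between the animals, and those of the other 6 genes do. With 1 retina per animal this difference has no replicate.

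**Figure D2:**
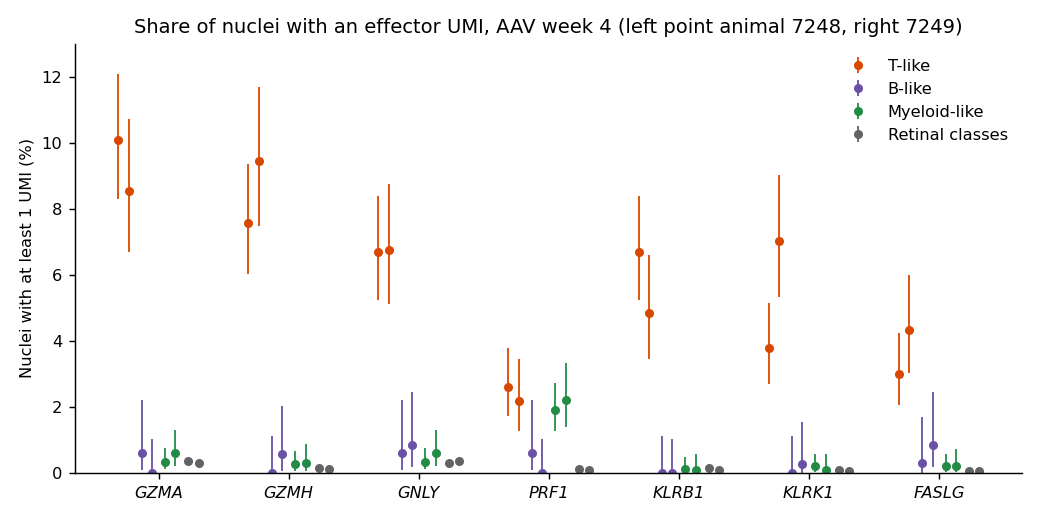
Percent of AAV week 4 nuclei with at least 1 UMI of each effector gene by class, with 1 point per animal and exact 95% binomial intervals. T-like nuclei stand above the other classes for every gene except *PRF1*, where the deeper myeloid-like nuclei reach 1.91% and 2.22%.

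T-like against retinal nuclei, all 7 genes were called higher, where 26.5% of 15640 genes were. Log2 fold changes ran from 5.09 ± 0.44 (*PRF1*) to 7.04 ± 0.44 (*KLRK1*), with adjusted p-values of 2.82e-06 and 2.41e-07 (edgeR's quasi-likelihood test on sums per class and animal, 2 animals, animal as block). Without TMM scaling the same 7 were called, while the share of calls that were higher moved from 47.8% to 57.8% and the median of all genes from -0.07 to 0.12. T-like against B-like nuclei, all 7 were again called higher, where 9.82% of genes were. There *KLRB1* had 132 and 72 UMIs in T-like nuclei and 0 in the B-like nuclei of both animals, at least 22.7-fold higher against 3 counts over both. The median log2 fold change of the 7 was 5.06, or 4.5 with *KLRB1* at its bound, against 0.11 over all genes. *PRF1* (2.86 ± 0.86, adjusted p = 0.0437) and *FASLG* (2.73 ± 0.63, adjusted p = 0.0125) had the smallest margins. The call of *PRF1* was lost in 3 of 9 alternatives and that of *FASLG* in 2 of 9, among them gates on 3 markers and on no marker of another immune class. In these fits the log2 fold changes were 2.45 or more for *PRF1* and 2.61 and 3.88 for *FASLG*, with greater SEs.

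T-like against myeloid-like nuclei, 6 of 7 were called higher, where 13.2% of genes were, at log2 fold changes from 5.06 ± 0.33 (*GNLY*) to 7.28 ± 0.43 (*KLRB1*). *PRF1* was the exception. It had 28 and 17 UMIs in T-like nuclei and 29 and 22 in myeloid-like nuclei, or 14.6 and 11.7 CPM (UMIs scaled to equal totals) against 5.92 CPM over both animals' myeloid-like nuclei. Its log2 fold change of 1.00 ± 0.42 had an adjusted p of 0.104, from 0.0208 to 0.221 over 9 alternatives. It was called in 2 of these, at 3.99 ± 1.05 (adjusted p = 0.0208) among nuclei with no marker of another immune class and at 1.21 ± 0.40 (adjusted p = 0.0398) without the mitochondrial filter. The first of these gates leaves out most myeloid-like nuclei, since 82.6% of them held a marker of the B list and 35.1% a T marker. Whether the nuclei left out differ in *PRF1* for another reason was not tested. *PRF1* made up 56.9% and 50% of the 7 genes' UMIs in myeloid-like nuclei and 4.58% and 3.12% in T-like nuclei. Without TMM scaling the share of calls in this comparison that were higher moved from 46.4% to 59.3% and the median of all genes from 0.01 to 0.17, and the same number of effector genes was called.

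The pathway list followed the same classes with a few genes against it. Of 36 genes tested, 32 were higher in T-like than in retinal nuclei and 0 lower, 21 were higher than in B-like nuclei and 2 lower, and 25 were higher than in myeloid-like nuclei and 4 lower (29% of all genes were lower against retinal, 7.21% against B-like and 15.3% against myeloid-like nuclei). *GZMK*, a further granzyme, had 64 and 33 UMIs in T-like nuclei, 0 in the B-like nuclei of both animals and 3 and 0 in myeloid-like nuclei. *CD226*, an activating receptor, had 530 and 566 UMIs in T-like and 26 and 21 in myeloid-like nuclei (log2 fold change 5.76 ± 0.25, adjusted p = 9.06e-08).

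*STX11* went the other way. It had 68 and 69 UMIs in T-like nuclei and 878 and 736 in myeloid-like nuclei (-2.35 ± 0.18), so most of its UMIs at AAV week 4 lay outside the T-like nuclei. *LAMP1* and *CD274* were also lower than in myeloid-like nuclei, at -1.21 and -1.04. Against B-like nuclei *SLAMF7* (-2.31 ± 0.28) was lower.

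Over all retinal classes pooled, *PRF1* was above the other retinas in animal 7248 but not in animal 7249. It was found in 0.121% and 0.0926% of retinal nuclei at AAV week 4 and in 0.0630% to 0.0966% in the 6 other retinas, so that animal 7249 lay within that range. By class, over both AAV week 4 animals, it was found in 0.632% of Müller, 0.238% of bipolar and 0.0682% of rod nuclei. Müller nuclei were a smaller share at AAV week 4 (3.96% and 1.65%) than at vehicle week 4 (9.62% and 10.8%). The part of this makeup in the pooled *PRF1* share was not tested. *GNLY* was found in 0.314% and 0.363% of retinal nuclei at AAV week 4 and in 0% to 0.0133% in the 6 other retinas. *GZMA* was found in 0.370% and 0.309% against 0.00330% to 0.0251%. In vehicle retinas *PRF1* gave 58.8% of the 7 genes' UMIs in retinal nuclei and *KLRB1* 23.7%, while at AAV week 4 *GZMA* and *GNLY* gave most of them (30.5% and 23.9% in animal 7248, 28.3% and 32.0% in animal 7249).

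Effector UMIs in rods were more frequent where the barcode held T markers, but most positive rods held none. Of rod nuclei with 2 or more T markers, 21.4% (90 of 421) and 21.8% (65 of 298) held an effector UMI, against 0.842% (222 of 26378) and 0.790% (227 of 28740) of rod nuclei with no T marker. In the rods of the 6 other retinas, the share over all rods was 0.0583% to 0.124%, below that of the AAV week 4 rods with no T marker. What part of the retinal signal comes from mixed barcodes or free RNA was not tested. Of all UMIs at AAV week 4, T-like nuclei held 58.4% for *KLRK1*, 56.2% for *GZMH*, 55.4% for *KLRB1*, 50.7% for *FASLG*, 46.4% for *GZMA*, 33.1% for *GNLY* and 22.5% for *PRF1*. For *GNLY* and *PRF1*, retinal nuclei held more UMIs (136 and 157 for *GNLY*, 50 and 38 for *PRF1*) than T-like nuclei did (87 and 87, and 28 and 17).

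The AAV effect on whole retinas was also compared between the weeks, with 1 animal in each week 2 group. In edgeR's quasi-likelihood test with Benjamini-Hochberg adjustment, where 0.575% of 27992 genes were called higher and 0.121% lower, the adjusted p-values ran from 0.04 (*GNLY*) and 0.0552 (*GZMA*) to 0.385 (*PRF1*). The spread in this test comes from the week 4 animals alone, and *GNLY* is the gene with 0 UMIs in both vehicle week 4 retinas, so no difference between weeks is drawn from it.

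Outside AAV week 4 T-like nuclei were few. In the AAV week 2 animal 1 of 8 T-like nuclei in the left eye and 5 of 22 in the right held an effector UMI, and 3 of these held at least 2 of the genes. They were *GZMH* (4 nuclei), *GNLY* (3), *KLRB1* (1) and *KLRK1* (1). In the 4 vehicle retinas 0 of 27 T-like nuclei did, which allows a share of up to 11% (3 counts of the total). With at least 3 markers required, no T-like nucleus was left in either vehicle week 4 retina, so the nuclei of that group rest on 2 markers each. A share of a few percent would not be detectable in so few nuclei. These nuclei also differed in depth from those of AAV week 4, with median UMIs per retina from 751.5 to 8254.

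Most positive nuclei held 1 of the 7 genes. In animal 7248, 223 T-like nuclei held 1, 78 held 2, 10 held 3 and 2 held 4. In animal 7249 the numbers were 169, 53, 13 and 6. At least 2 were held by 8.73% and 9.18% of T-like nuclei, by 0 of 324 and 0 of 356 B-like nuclei, and by 3 nuclei of each animal among the myeloid-like. Over both animals 54 of 81527 retinal nuclei (0.0662%) also held at least 2, and 47 of the 54 were rods. The share with at least 1 was 27.9%, 32.8%, 32.8% and 27.9% over 4 equal sets of T-like nuclei from the shallowest to the deepest in animal 7248, and 30.1%, 29.1%, 35.4% and 28.4% in animal 7249, so it showed no steady climb with depth. The share with at least 2 of the genes was 5.04%, 10.2%, 11.2% and 8.53% over the same sets in animal 7248 and 5.61%, 10.7%, 13.8% and 6.60% in animal 7249, lowest in the shallowest set.

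Some pairs were found together more often than the product of their shares gives. *GZMA* and *PRF1*, protease and pore of the same granule, shared 14 nuclei in animal 7248 and 8 in animal 7249, where the products gave 2.72 and 1.45. Over both animals the ratio was 5.31. *GNLY* and *KLRK1* shared 23 nuclei (ratio 3.64), *KLRB1* and *KLRK1* 19 (3.43), and *GZMH* and *GNLY* 26 (2.54). Each of these 4 pairs was above its product in both animals.

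The 2 granzymes were not such a pair. *GZMA* and *GZMH* shared 12 nuclei in animal 7248 (ratio 1.53) and 6 in animal 7249 (0.95). *GZMA* and *KLRB1* shared 10 over both animals (0.99). Of the 21 pairs 18 had a ratio above 1 over both animals. The 3 others were *GZMA* with *KLRB1*, *PRF1* with *KLRB1* and *PRF1* with *KLRK1*, the last 2 with 2 nuclei each. Some pairs turned between animals 7248 and 7249, such as *GZMH* with *KLRK1* (0.68 and 1.93) and *KLRK1* with *FASLG* (0 and 2.10). T-like nuclei mix kinds of lymphocyte, and ratios of other gene pairs were not counted, so the 18 is not read as a trait of these genes. Nuclei of 1 animal are not replicates, so no test was made.

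**Figure D3:**
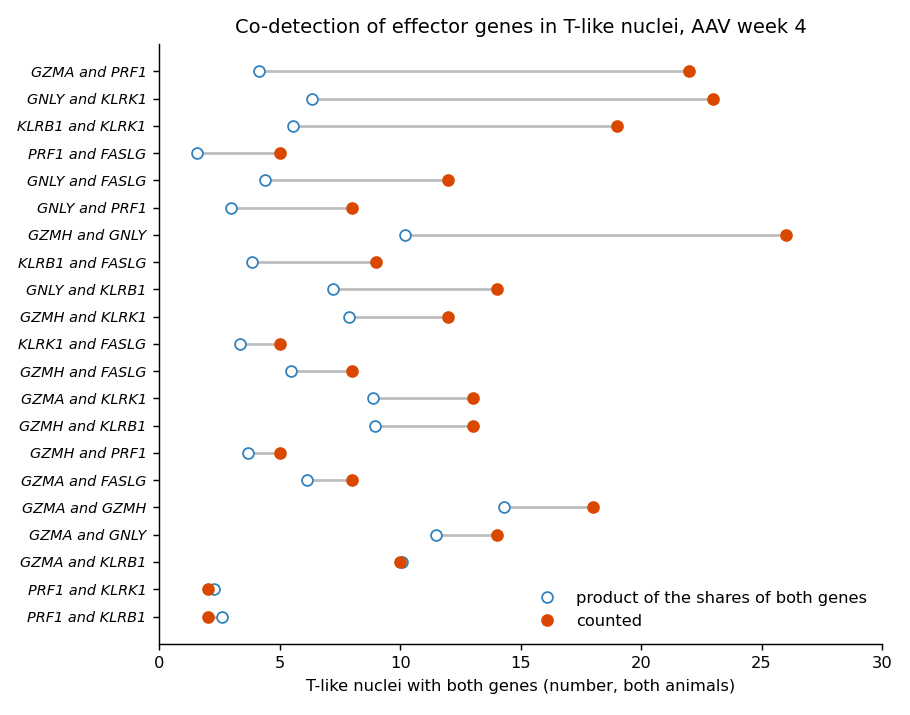
Number of T-like nuclei of both AAV week 4 animals that hold both genes of each pair (filled) and the number the product of the 2 shares gives (open), with pairs in order of the ratio. *GZMA* with *PRF1* stands at 22 against 4.15, and *GZMA* with *KLRB1* at 10 against 10.1.

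Effector detection followed UMIs of the CD8 genes more than those of *CD4*. T-like nuclei held 560 *CD8A* and 161 *CD8B* UMIs over both animals. Since the gate does not separate NK from T cells, the sets below are not named as T cell subsets. Of T-like nuclei with a *CD8A* or *CD8B* UMI and no *CD4* UMI, 54.7% (117 of 214) and 58.5% (100 of 171) held an effector UMI. Of those with *CD4* and no CD8 gene, 11.8% (18 of 152) and 11.9% (15 of 126) did. Of those with none of the 3, which were 62.4% and 58.9% of T-like nuclei, 26.9% (173 of 643) and 26.0% (120 of 462) did. The *CD4* nuclei were the deeper, with median UMIs of 1666 and 1690.5 against 1279.5 and 1270 in the CD8 nuclei.

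A CD8 gene was found in 59.3% and 64.7% of *PRF1* nuclei, 45.2% and 67.2% of *GZMA* nuclei, 46.2% and 47.3% of *GZMH* nuclei and 40.6% and 41.5% of *GNLY* nuclei. It was found in 48.4% and 26.5% of *FASLG* nuclei, 29.0% and 42.1% of *KLRB1* nuclei and 28.2% and 30.9% of *KLRK1* nuclei. In nuclei with no effector UMI the shares were 15.9% and 16.6%, below those of each of the 7 genes in both animals, and differences among the 7 were not tested. *CD4* was found in 0% and 2.63% of *KLRB1* nuclei, and in 21% and 23.9% of nuclei with no effector UMI. Of *FASLG* nuclei 3.23% of 31 in animal 7248 and 26.5% of 34 in animal 7249 held *CD4*, and the exact intervals of these shares overlap (0.0816 to 16.7 and 12.9 to 44.4).

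Other T and NK genes were set beside each effector gene. *ZBTB16*, the factor PLZF of innate-like T cells, was found in 33.3% and 36.8% of *KLRB1* nuclei, and in 12.8% to 22.6% (animal 7248) and 8.11% to 23.5% (animal 7249) of the nuclei with each of the other 6 genes. In nuclei with no effector UMI its shares were 8.22% and 5.52%. Of *KLRK1* nuclei 15.4% and 25.5% held a gene of the NK list, and of *GNLY* nuclei 11.6% and 22.6%, against 3.34% and 2.58% with no effector UMI. *TOP2A*, a gene of dividing cells, was found in 11.5% of *GZMA* nuclei in animal 7248 and 38.8% in animal 7249, in 14.8% and 23.5% of *PRF1* nuclei, and in 7.52% and 7.55% of nuclei with no effector UMI. It was below those last shares for *GNLY* (0% and 1.89%), *GZMH* (1.28% and 4.05%) and *KLRB1* (1.45% and 2.63%).

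**Figure D4:**
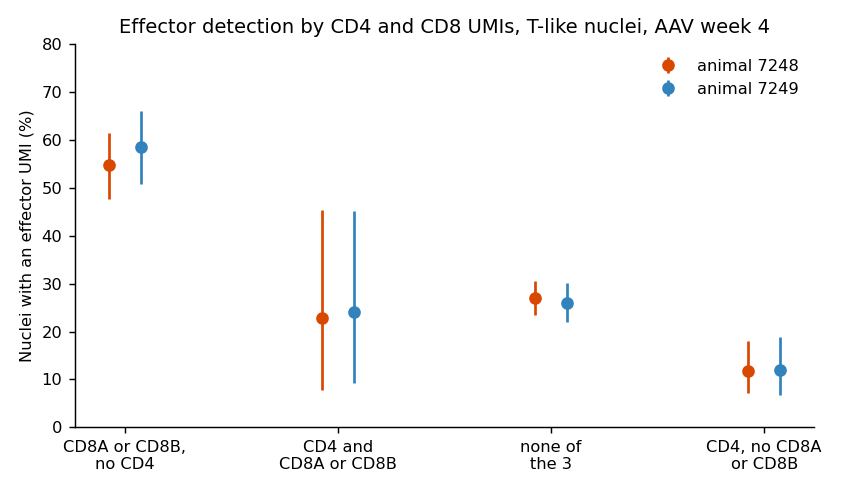
Percent of T-like nuclei at AAV week 4 with an effector UMI, by the *CD4*, *CD8A* and *CD8B* UMIs of the nucleus, with 1 point per animal and exact 95% binomial intervals. CD8 nuclei stand at 54.7% and 58.5% and *CD4* nuclei at 11.8% and 11.9%. The intervals cover counting error only, since nuclei of 1 animal are not replicates.

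T-like nuclei with and without an effector UMI were compared within the same animals, with the 7 genes left out of the test since they make the split. Median depth was close in the 2 sets, 1250 and 1251 UMIs in animal 7248 and 1224 and 1160 in animal 7249. Of 9626 genes tested, 55 (0.571%) were higher and 45 (0.467%) lower in the positive nuclei. Of the pathway list 32 genes were tested, 5 were higher and 1 lower, with a median log2 fold change of 0.42 against 0.01 over all genes. Without the animal block 1 pathway gene and 1 gene in all were called, and with DESeq2 1 and 15. These calls thus rest on the pairing within animals and on the test used. A fit of 2 sums in each of 2 animals leaves little to estimate a gene's own spread.

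*CCL5*, a chemokine of cytotoxic cells, was found in 35.1% and 32.4% of positive nuclei and in 7.94% and 9.02% of negative nuclei (log2 fold change 2.17 ± 0.18, adjusted p = 0.00177). It was called in all 9 alternatives, the fit without the block included. *RUNX3* was found in 30.4% and 24.5% against 19.2% and 14.5% (1.14 ± 0.16, adjusted p = 0.00898). *IFNG*, interferon gamma, had 14 and 20 UMIs in positive nuclei and 5 and 9 in the more numerous negative nuclei (2.47 ± 0.47, adjusted p = 0.0383). It was found in 10 *GZMA* nuclei of each animal (9.62% and 14.9%), and in at most 2 nuclei per animal with each of the other 6 genes.

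The receptors *NCR1* and *CD244* rose too, at 3.16 ± 0.64 (adjusted p = 0.0486) and 1.81 ± 0.36 (adjusted p = 0.0466). *NCR1*, which marks NK cells, had 16 and 19 UMIs in positive nuclei and 8 and 1 in negative nuclei. *CTSC*, the protease that activates granzymes, was lower in positive nuclei, found in 30% and 32.0% against 42.1% and 43.6% (-0.73 ± 0.14, adjusted p = 0.0383). The calls of *IFNG*, *NCR1*, *CD244* and *CTSC* were each lost in at least 4 alternatives, and that of *RUNX3* in 2 (without the block and with DESeq2). *GZMK* (1.46 ± 0.36, adjusted p = 0.118), *NKG7* (1.85 ± 0.49, adjusted p = 0.142) and *EOMES* (2.78 ± 0.90, adjusted p = 0.267) did not pass. *GZMB* was not tested here, with 1 and 3 UMIs in positive nuclei and 2 and 7 in negative nuclei.

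Of the T subset list 19 genes were tested, 3 were higher and 4 lower in positive nuclei. *CD8A* (1.73 ± 0.16, adjusted p = 0.0031) and *ZBTB16* (1.30 ± 0.21, adjusted p = 0.0211) were among the higher, and *CD8B* (1.40 ± 0.32, adjusted p = 0.0847) did not pass. *TCF7* and *LEF1*, factors of naive and memory T cells, were lower at -1.73 ± 0.18 (adjusted p = 0.00392) and -1.34 ± 0.23 (adjusted p = 0.0244). *IL2RA*, a cytokine receptor chain high on regulatory T cells, was lower at -1.65 ± 0.22 (adjusted p = 0.00828), and *CD4* at -1.33 ± 0.20 (adjusted p = 0.0162). *FOXP3*, the factor of regulatory T cells, had 3 and 13 UMIs in positive nuclei and 58 and 70 in negative nuclei, with an adjusted p of 0.0965. Of 9 alternatives the call of *LEF1* was lost in 4, those of *ZBTB16* and *CD4* in 3, that of *IL2RA* in 2, and those of *CD8A* and *TCF7* in 1, the fit without the block. *CD8B* went the other way and was called in 4 of the 9.

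**Figure D5:**
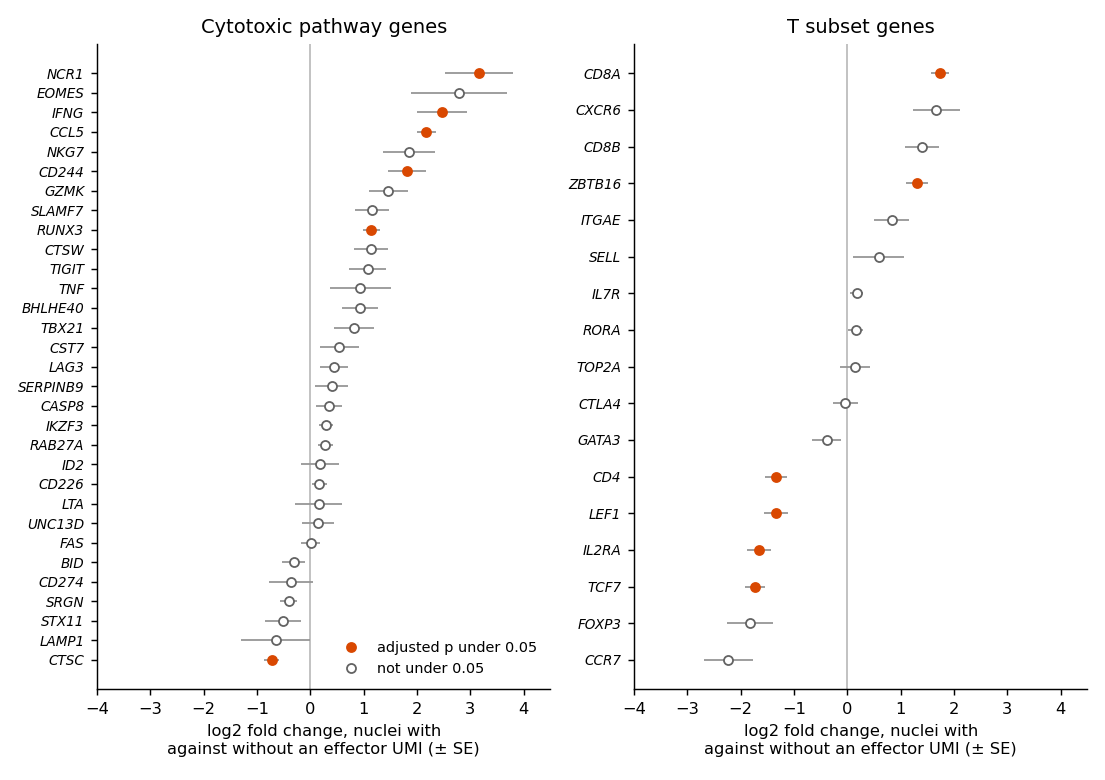
Log2 fold change of the pathway genes (left) and T subset genes (right) reported here, between T-like nuclei with and without an effector UMI, with its SE (worked back from the test statistic), over 2 animals with the animal as block. Filled points passed an adjusted p of 0.05, such as *CCL5* at 2.17 and *TCF7* at -1.73.

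Over 18 sums of 9 classes in 2 animals, the 5 genes whose log2(CPM + 1) was most like the mean of the 7 were ENSSSCG00000054409 (Pearson r = 0.99), *CTLA4* (0.98), ENSSSCG00000058031 (0.98), *SH2D1A* (0.98) and *IL18R1* (0.98), out of 8737 genes with at least 20 UMIs in the T-like nuclei of each animal. These sums share libraries and 2 of the 18 are T-like, so the values describe which genes share the T-like peak. Set against the mean of the other 6, *PRF1* had r = 0.77 and the others 0.94 to 0.97.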

How the data were processed

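Per the labels and the methods of the study, nuclei were captured with 10x 3′ chemistry and the authors counted reads with Cell Ranger 8.0.0 against Sscrofa 11.1. The deposited values are raw counts (UMIs) per gene and barcode, at least 500 UMIs each, from 4 lanes per retina. Nuclei whose posterior of being compromised, from a mixture fit on mitochondrial share and genes detected, exceeded 0.75 were removed (6.95% to 12.9% per retina). No doublet caller was run and free RNA was not subtracted, so mixed barcodes remain. A class needed 2 distinct markers and more than any other class, and ties stayed unassigned. UMIs were summed per retina, or per class and animal, and tested with edgeR 4.0.16 (R 4.3.3; filterByExpr, TMM, quasi-likelihood test, Benjamini-Hochberg adjustment over all genes tested, threshold 0.05). The SE of an edgeR fold is the log2 fold change over the square root of the F statistic. It can be narrower than counting error where a group holds few UMIs. DESeq2 1.42.0 was an alternative. Classes were compared within the same 2 animals, so the animal was a block. The correlation between classes of the animals' differences was 0.0614 to 0.322. Intervals are exact (Clopper-Pearson, 95%). In simulated counts for the whole-retina comparison (26459 genes), 78% of genes raised 2-fold and 100% of those raised 4-fold were recovered. For T-like against B-like (14764 genes) these were 30% and 86%, and for positive against negative nuclei (9271 genes) 40% and 100%, with 6.77% of calls on unchanged genes. Of genes lowered to 0.5 and 0.25 of their level, 66% and 96%, 16% and 50%, and 30% and 78% were recovered, in the same order of comparisons. The simulated spread was fixed, without a difference between animals, and genes with few counts were not changed, so recovery of such genes is not described.

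The 7 genes, the pathway list (39 of 47 in the files), the T subset list (20 of 22) and the markers were chosen with earlier results of these data known. Of the pathway list, genes called in a comparison were named, up to the 10 with the greatest change, and *GZMB*, *KLRD1*, *KLRF1*, *CD8B*, *GZMK*, *NKG7*, *EOMES* and *FOXP3* were added after their values were seen. Positions and sequences are from RefSeq Sscrofa11.1, matched by symbol. Labels do not say more of replicates than the animal and eye. Fits used 2 animals per group, or 2 per class. A few genes of the lists are counted but not reported here by name.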

Additional observations from a re-analysis of the deposited data

Results flagged for a closer look

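For *GNLY* the fitted AAV effect was past the threshold of the test between weeks, in a design with 1 animal in each week 2 group. UMIs in whole retinas were 5 and 6 in the eyes of the AAV week 2 animal, 4 and 7 in those of the vehicle week 2 animal, 250 and 275 at AAV week 4 and 0 in both vehicle week 4 retinas. The difference of the AAV effect between week 4 and week 2 had an adjusted p of 0.04 in edgeR's quasi-likelihood test with Benjamini-Hochberg adjustment, over 27992 genes of which 0.575% were called higher. No fold is given because the vehicle week 4 retinas are at 0. The week 2 animals are assumed to vary like the week 4 animals, so no difference between weeks is drawn from it. The other 6 genes did not pass this test, with *GZMA* nearest at an adjusted p of 0.0552.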

How the results depend on the processing

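In whole retinas the same 6 effector genes were called in all 11 alternatives, and *PRF1* in none (adjusted p 0.0522 to 0.346). Against B-like nuclei 7 genes were called, 5 with at least 3 markers or with no marker of another immune class, and 6 with at least 1000 UMIs. Against myeloid-like nuclei 6 were called, and 7 with no marker of another immune class or without the mitochondrial filter. Against retinal nuclei all 7 were called in all 9. No result reversed. Fits without an animal were not run for comparisons between classes, since no residual degrees of freedom would be left.

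The count of pathway genes that differed between positive and negative T-like nuclei was the least stable: 6 as reported, 2 with at least 3 markers, 1 with DESeq2, 2 without TMM, 10 without the mitochondrial filter, 2 with at least 1000 UMIs and 16 when rod markers did not compete in the gate, a setting chosen after seeing the data. Without the replicate block (pairing by animal) it was 1. The block changed no other count of effector genes.

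The mean share of T-like nuclei with an effector UMI, 30.5%, became 30.9% without the mitochondrial filter, 31.5% with at least 1000 UMIs, 30.9% with at least 3 markers, 28.9% when rod markers did not compete, 11.9% with 2 UMIs required, and 17.0% and 22.7% after thinning to 500 and 1000 UMIs. Leaving out an animal gave 30.4% to 30.7%. The share with at least 2 genes, 8.96%, became 10.7% with at least 1000 UMIs, 8.07% when rod markers did not compete, 0.913% with 2 UMIs required and 2.83% and 6.07% after thinning. Leaving out an animal gave 8.73% to 9.18%. The difference in T-like share between AAV and vehicle week 4 was 1.19 to 2.64 points over the alternatives, 1.66 to 2.12 leaving out an animal.

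Counts over all genes moved more. In whole retinas 2976 genes were called, 4654 with DESeq2, 4790 without the first AAV animal, and 1011 and 928 without the first and second vehicle animal. Against B-like nuclei 2664 became 1225 with no marker of another immune class. Between positive and negative nuclei 100 became 33 with at least 3 markers, 15 with DESeq2, 47 without TMM, 308 without a filter on low counts, 266 with no marker of another immune class, 182 without the mitochondrial filter, 1 without the block and 431 when rod markers did not compete. The cause was not tested. The 27 T-like nuclei of the vehicle retinas were too few to show a share of a few percent.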
